A study of Mus musculus with 11 samples.

Results

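DKO+Dnmt3a1 is a mouse embryonic stem (ES) cell line in which the long isoform of the DNA methyltransferase Dnmt3a was put back into DKO, a line without Dnmt3a and Dnmt3b. It was set against its parent line DKO, with 1 library each. The members were the genes at 1 RPKM (reads scaled by transcript length and sequencing depth) or more in either library, 12896 of the 24016 genes in the table. The 11 polyA RNA libraries of the study formed 9 groups: DKO+Dnmt3a1, DKO+Dnmt3a2, DKO+Dnmt3b1 and their parent DKO, TKO+Dnmt3a1 and TKO+Dnmt3a2 (2 libraries each), TKO+Dnmt3b1 and their parent TKO, and wild type (WT). TKO lacked Dnmt1 as well as Dnmt3a and Dnmt3b, so that DKO and its add-back lines kept Dnmt1. All were labelled J1 ES cells of strain 129S4/SvJae, and all grew on irradiated mouse embryonic fibroblasts in serum with LIF, the cytokine that keeps ES cells undifferentiated. The labels name neither the vector nor its promoter, and they do not say whether a line is 1 clone. The difference between 2 lines and the effect of the enzyme therefore cannot be told apart.

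Dnmt3a and Dnmt3b place methyl groups on unmethylated CpG dinucleotides, and Dnmt1 copies existing CpG methylation to the new strand after replication. In ES cells without Dnmt3a and Dnmt3b, Dnmt1 alone copies the pattern incompletely and methylation is lost over many passages. CpG methylation silences genes of the germline, several gene families on the X chromosome and 1 parental copy of imprinted genes. The comparison asks which transcripts differ once the long isoform is present again next to Dnmt1.

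The spacing of the RPKM values implied depths of 24.82 M reads for DKO+Dnmt3a1 and 29.4 M reads for DKO, within 21.7 to 32.78 M over all 11 libraries. The pluripotency marker Pou5f1 stood at 658 RPKM in DKO+Dnmt3a1 and 553 RPKM in DKO, Sox2 at 245 RPKM in DKO+Dnmt3a1 and 265 RPKM in DKO, and Nanog at 148 RPKM in DKO+Dnmt3a1 and 164 RPKM in DKO. Markers of the feeder fibroblasts were present in both libraries: the 30 markers summed to 891.5 RPKM in DKO+Dnmt3a1 and 1120.7 RPKM in DKO, and 0 of them were at 0. Macrophage markers summed to 44.7 RPKM in DKO+Dnmt3a1, where 1 of 22 was at 0, and to 119.4 RPKM in DKO, where 0 were. In DKO+Dnmt3a2 these sums were 341.8 and 14.1 RPKM, and in DKO+Dnmt3b1 they were 2934 and 312.6 RPKM. Y-linked genes set the families apart. Uba1y had 13 RPKM in DKO+Dnmt3a1 and 5.42 RPKM in DKO, against 0 to 0.019 RPKM in the WT and TKO family libraries. Ddx3y parted them less, with 6.46 RPKM in DKO, against 0.394 RPKM in WT and up to 3.43 RPKM (TKO+Dnmt3b1) in the TKO family.

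The transcript of the enzyme put back checked the label of the line. Dnmt3a stood at 17.6 RPKM in DKO+Dnmt3a1, against 3.63 RPKM in DKO, a log2(RPKM + 0.5) difference of 2.13 ± 0.46 (SE, limma). Its level was 22.7 RPKM in WT, 39.4 and 34.2 RPKM in the TKO+Dnmt3a1 libraries, 11.4 RPKM in DKO+Dnmt3a2 and 6.76 RPKM in DKO+Dnmt3b1. DKO was the lowest of the 11 libraries, and DKO+Dnmt3a1 lay below WT and below both TKO+Dnmt3a1 libraries. One value per gene does not separate the introduced transcript from what is left of the disrupted gene, nor the long isoform from the short. Dnmt3b, which was not put back here, had 13.3 RPKM in DKO+Dnmt3a1, against 5.68 RPKM in DKO (1.16 ± 0.32).

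Between DKO+Dnmt3a1 and DKO, 379 of 12896 genes (2.94%) were at least 2-fold higher in DKO+Dnmt3a1 and 844 (6.54%) at least 2-fold lower, on the log2(RPKM + 0.5) scale. The median over all members was −0.02. A difference of at least 2-fold in either direction was held by 9.48% of genes here, against 2.43% of 12898 genes between the replicate libraries of TKO+Dnmt3a1 and 3.94% of 13172 genes for the same pair in TKO+Dnmt3a2. A difference of 4-fold or more was held by 1.08%, against 0.326% and 0.228% between those library pairs. The spread between 2 libraries of 1 line was thus smaller than that between DKO+Dnmt3a1 and DKO, although the labels do not say whether those pairs were separate cultures.

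Because each arm had 1 library, limma took the spread from the replicated TKO lines and assumed that lone libraries vary like them. Of 14229 genes tested, limma called 0 higher in DKO+Dnmt3a1 (0%) and 4 lower (0.0281%) at a Benjamini-Hochberg adjusted p under 0.05, with 2012 genes at an unadjusted p under 0.05. All 4 calls were lost when any 1 of the 4 replicate libraries (TKO+Dnmt3a1, TKO+Dnmt3a2) was left out, which changes the estimate of the spread and not the 2 arms. None of the 4 was called in an additive model of family and enzyme, which fits 1 enzyme effect to both families (−2.04 to −2.42, limma adjusted p = 0.247 to 0.318). Below, "fell" is used of these 4 genes only, and every other difference between DKO+Dnmt3a1 and DKO is a value that did not pass. Counts and medians of gene lists are over all members in the table, because a member that reached 1 RPKM only in the library where it was higher had to differ. Over all 24016 genes, many of them not transcribed here, 444 were at least 2-fold higher in DKO+Dnmt3a1 (1.85%) and 934 lower (3.89%), with a median of 0. For lists whose members nearly all reached 1 RPKM, the 2.94% and 6.54% above are the nearer values.

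The 4 genes that fell belong to the noncoding RNAs of the imprinted Dlk1-Dio3 region of chromosome 12 or share its reads. There the maternal copy makes Meg3, Rian and Mirg, long noncoding RNAs that host many small RNAs, and the paternal copy makes Dlk1, a membrane protein of the Notch ligand family. A methylated control region near Meg3 keeps the maternal transcripts silent on the paternal copy. The window from 250 bases before to 50 bases after the first of 2 RefSeq starts of Meg3 (GRCm38.p6, chr12:109540746-109541045, + strand) is printed because Meg3 is the head of this cluster and its methylation is known to govern it. Capitals mark CG, the dinucleotide that Dnmt3a methylates, which reads the same on both strands.
Meg3: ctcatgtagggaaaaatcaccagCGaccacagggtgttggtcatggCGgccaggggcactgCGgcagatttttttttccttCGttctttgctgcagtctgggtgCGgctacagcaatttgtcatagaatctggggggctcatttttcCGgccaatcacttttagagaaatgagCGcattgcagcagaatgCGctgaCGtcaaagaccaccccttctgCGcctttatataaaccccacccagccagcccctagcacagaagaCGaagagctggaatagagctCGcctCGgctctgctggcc
This window holds 13 CG sites, more than 62.1% of the 32851 windows in the RefSeq table have, and 94.6% of those windows have at least 1. The window of the second Meg3 start holds 1 CG site, and that of Rian, 1 of the 4 genes that fell, holds 0.

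Rian fell to 2.78 RPKM in DKO+Dnmt3a1, against 35.1 RPKM in DKO (12.6-fold lower, −3.44 ± 0.23, limma adjusted p = 0.0323). It stood at 4.48 RPKM in DKO+Dnmt3a2, 102 RPKM in DKO+Dnmt3b1, and 26.2 to 64.8 RPKM in WT and the TKO family. The lines with either Dnmt3a isoform in DKO were thus the lowest of the 11, and the line with Dnmt3b1 was the highest. Fibroblasts transcribe this cluster too, and the fibroblast marker sum was 891.5 RPKM in DKO+Dnmt3a1, against 1120.7 RPKM in DKO. In the DKO family the highest sum and the highest Rian level were both in DKO+Dnmt3b1 (2934 RPKM of markers), and the lowest sum was in DKO+Dnmt3a2 (341.8 RPKM), which had the second-lowest Rian level. WT had a sum of 691.9 RPKM and 27.1 RPKM of Rian, and TKO+Dnmt3b1, with the highest sum of 3851 RPKM, had 38.8 RPKM of Rian. The part of feeder RNA in the Rian difference was not tested. AF357359, a small nucleolar RNA inside Rian in the RefSeq annotation, fell to 2.73 RPKM in DKO+Dnmt3a1, against 45.0 RPKM in DKO (−3.82 ± 0.22, adjusted p = 0.018). At 30 nt this rests on about 2 reads in DKO+Dnmt3a1 and about 40 in DKO.

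The other calls were Mir1906-1 and Mir1906-2, miRNA genes that RefSeq places on chromosomes 12 (inside Meg3) and X. Both fell to 2 RPKM in DKO+Dnmt3a1, against 41.5 RPKM in DKO (−4.07 ± 0.23, adjusted p = 0.018), about 4 reads against about 98. Their mature sequence is the same and is printed with the seed (bases 2 to 8) in capitals.
mmu-miR-1906: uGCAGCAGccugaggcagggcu
PolyA libraries read the transcript around the hairpin and not the mature miRNA, so the shared mature sequence does not show that reads are shared. The values were equal in DKO+Dnmt3a1 and in DKO and close in DKO+Dnmt3a2 (3.5 and 3.93 RPKM). The pair is therefore counted as 1 measurement.

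Meg3 itself had 3.85 RPKM in DKO+Dnmt3a1, against 40.1 RPKM in DKO (10.4-fold lower, −3.22 ± 0.35), and did not pass (adjusted p = 0.169). Its values were 4.57 RPKM in DKO+Dnmt3a2, 99.7 RPKM in DKO+Dnmt3b1, and 22.8 to 62.7 RPKM in the other 7 libraries, with the same lines lowest and highest as for Rian. Mirg had 0.767 RPKM in DKO+Dnmt3a1, against 3.6 RPKM in DKO (−1.70). The paternally expressed Dlk1 was also lower, at 0.640 RPKM in DKO+Dnmt3a1 against 2.12 RPKM in DKO (−1.2). Of the 12 cluster members in the table, 7 were at least 2-fold lower (58.3%) and 0 higher, with a median of −1.45, the lowest of the 26 lists. Only 3 members reached 1 RPKM in both libraries, 5 reached it in DKO alone, and 4 in neither. The comparison of DKO+Dnmt3a2 with the same DKO library gave a median of −1.54 for these genes and that of DKO+Dnmt3b1 gave 0.27. The 3 comparisons share DKO, so that these medians are not independent of each other. TKO+Dnmt3a1 against TKO, which shares no library with them, gave −0.91.

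Among 56 imprinted genes outside this region, 6 were at least 2-fold higher and 4 at least 2-fold lower, with a median of 0.13. These were 10.7% and 7.14%, beside 1.85% and 3.89% over all genes in the table. Of the 45 at 1 RPKM or more in either library, 13.3% were higher and 8.89% lower, beside 2.94% and 6.54% of all genes at that level. H19, a maternal noncoding RNA that opposes growth, had 66.9 RPKM in DKO+Dnmt3a1, against 157 RPKM in DKO (−1.22 ± 0.23). In the TKO family H19 had 89.8 and 109 RPKM in TKO+Dnmt3a1, against 246 RPKM in TKO (−1.31), while WT stood at 29.8 RPKM. Igf2r, the maternal receptor that clears the growth factor Igf2, had 19 RPKM in DKO+Dnmt3a1, against 41.2 RPKM in DKO, the highest of the 11 libraries. The paternally expressed Peg10, a placental gene of retrotransposon origin, had 177 RPKM in DKO+Dnmt3a1, against 62.5 RPKM in DKO (1.5 ± 0.27). For Peg10 the TKO family had 74.5 and 96.7 RPKM in TKO+Dnmt3a1, against 165 RPKM in TKO (−0.96), the opposite sign. Sfmbt2, a Polycomb-group gene, had 13.2 RPKM in DKO+Dnmt3a1, against 3.94 RPKM in DKO (1.63 ± 0.39).

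Genes of the germline whose promoters are known to be methylated in other cells were lower more often than higher. Of 69 in the table, 20 were at least 2-fold lower (29%) and 2 higher (2.9%), beside 3.89% and 1.85% over all genes in the table, and their median was −0.27. Of these members 46 reached 1 RPKM in both libraries, 8 in DKO alone, 1 in DKO+Dnmt3a1 alone and 14 in neither. The promoter windows of Dazl (GRCm38.p6, chr17:50293571-50293870, − strand) and Smc1b (chr15:85131908-85132207, − strand) are printed as examples of the CpG-rich starts of these genes, again with CG in capitals.
Dazl: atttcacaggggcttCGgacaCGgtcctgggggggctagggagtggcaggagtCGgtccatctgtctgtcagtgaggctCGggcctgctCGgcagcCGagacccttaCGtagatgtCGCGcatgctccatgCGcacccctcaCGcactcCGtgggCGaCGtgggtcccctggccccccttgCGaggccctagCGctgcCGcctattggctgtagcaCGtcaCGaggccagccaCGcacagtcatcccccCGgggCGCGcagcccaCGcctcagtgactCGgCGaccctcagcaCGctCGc
Smc1b: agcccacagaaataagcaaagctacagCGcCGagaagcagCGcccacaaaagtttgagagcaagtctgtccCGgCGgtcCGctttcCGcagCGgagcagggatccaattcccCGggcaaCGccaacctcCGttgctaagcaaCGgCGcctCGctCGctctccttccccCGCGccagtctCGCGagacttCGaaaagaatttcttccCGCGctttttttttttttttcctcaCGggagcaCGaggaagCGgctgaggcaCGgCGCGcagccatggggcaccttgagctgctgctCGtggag
They hold 28 and 29 CG sites. Over the 47 genes with a window, of the 55 germline genes at 1 RPKM or more in either library, the median was 17 CG sites, against 7 over all 32851 windows. Such starts were not particular to these genes, since the medians were 22.5 for the methyltransferase list, 23.2 for Polycomb genes and 20.5 for glycolysis genes.

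Dazl, an RNA-binding protein needed by germ cells, had 2.92 RPKM in DKO+Dnmt3a1, against 18.7 RPKM in DKO (−2.49 ± 0.51). It stood at 2.96 RPKM in DKO+Dnmt3a2, 9.01 RPKM in DKO+Dnmt3b1 and 8.73 RPKM in WT, so that DKO+Dnmt3a1 was below WT. In the TKO family it had 7.30 and 15.9 RPKM in TKO+Dnmt3a1, against 42.2 RPKM in TKO. Smc1b, the meiotic cohesin subunit, had 1.81 RPKM in DKO+Dnmt3a1, against 17.7 RPKM in DKO (−2.98 ± 0.34). In the TKO family Smc1b had 16.1 and 19.5 RPKM in TKO+Dnmt3a1, against 16.9 RPKM in TKO. Tuba3a and Tuba3b, testis tubulins that are close copies of each other, had 6.86 and 0.203 RPKM in DKO+Dnmt3a1, against 57.6 and 6.35 RPKM in DKO. Cox7b2, a testis form of a cytochrome oxidase subunit, had 0.883 RPKM in DKO+Dnmt3a1, against 12.3 RPKM in DKO (−3.21 ± 0.47). In TKO+Dnmt3a1 Cox7b2 had 9.84 and 5.68 RPKM, against 3.39 RPKM in TKO, the opposite sign.

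Not all germline genes were lower. Tdrd1, a Tudor protein of the piRNA pathway, had 1.29 RPKM in DKO+Dnmt3a1, against 0.103 RPKM in DKO (1.57 ± 0.34). Dppa2, a gene of ES and germ cells, had 53.4 RPKM in DKO+Dnmt3a1, against 21.0 RPKM in DKO, the lowest of the 11 libraries. Ddx4, a germ cell RNA helicase, had 10.6 RPKM in DKO+Dnmt3a1, against 6.60 RPKM in DKO (0.64 ± 0.59), and Tex19.1, which guards germ cells against retrotransposons, had 28.8 RPKM in DKO+Dnmt3a1 against 29.7 RPKM in DKO.

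Genes of the Rhox, Xlr and Mage families on the X chromosome held the lowest single values. Of 47 in the table, 21 were at least 2-fold lower (44.7%) and 0 higher, with a median of −0.80 that became −1.67 with a pseudocount of 0.1 RPKM. Only 5 of them reached 1 RPKM in both libraries, 13 reached it in DKO alone, and 29 in neither. Xlr genes encode proteins related to the synaptonemal complex protein Sycp3, and Rhox genes encode homeobox factors of the germline and placenta. The window of Xlr3c (GRCm38.p6, chrX:73265341-73265640, − strand), the gene with the lowest difference of all, is printed for comparison with the germline starts.
Xlr3c: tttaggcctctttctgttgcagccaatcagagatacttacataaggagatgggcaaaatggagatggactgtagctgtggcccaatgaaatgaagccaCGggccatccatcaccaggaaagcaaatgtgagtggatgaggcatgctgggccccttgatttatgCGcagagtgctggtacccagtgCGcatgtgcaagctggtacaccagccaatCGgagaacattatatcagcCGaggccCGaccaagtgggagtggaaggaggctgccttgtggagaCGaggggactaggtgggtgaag
It holds 7 CG sites, and 47.9% of all windows hold fewer. Over the 16 with a window among the 18 genes at 1 RPKM or more in either library the median was 6.5. That is close to the median of 7 over all 32851 windows.

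Xlr3c had 0.277 RPKM in DKO+Dnmt3a1, against 21.5 RPKM in DKO (77.5-fold lower, −4.82 ± 0.54, adjusted p = 0.171). Its values were 0.154 RPKM in DKO+Dnmt3a2, 0.498 RPKM in DKO+Dnmt3b1, 2.58 to 9.87 RPKM in the TKO family and 0.019 RPKM in WT. DKO was thus the highest library, and WT and the 3 add-back lines of DKO were the 4 lowest. Xlr3a had 0.871 RPKM in DKO+Dnmt3a1, against 27.7 RPKM in DKO (−4.36 ± 0.51), and 0.872 RPKM in WT. Xlr3 genes are close copies, so that single values are uncertain. Rhox1 had 0.996 RPKM in DKO+Dnmt3a1, against 6.66 RPKM in DKO (−2.26 ± 0.32), and 0.902 RPKM in WT. Rhox6 and Rhox9 differed less, with 3.6 and 3.57 RPKM in DKO+Dnmt3a1, against 6.63 and 7.64 RPKM in DKO. Mageb16 had 2.46 RPKM in DKO+Dnmt3a1, against 3.10 RPKM in DKO. In TKO+Dnmt3a1 the median of the 47 genes was −0.26 against TKO. The DKO+Dnmt3a2 and DKO+Dnmt3b1 medians, against the same DKO library, were −0.70 and −0.68. Efhc2, another X-linked gene that was no list member, had 1.01 RPKM in DKO+Dnmt3a1, against 17 RPKM in DKO (−3.53 ± 0.35). On the X chromosome as a whole the median was 0.01, and 53 of 454 genes (11.7%) were at least 2-fold lower, beside 6.54% of all 12896 members. These include the list members at least 2-fold lower, 16 of the 18 at 1 RPKM or more in either library.

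**Figure D1:**
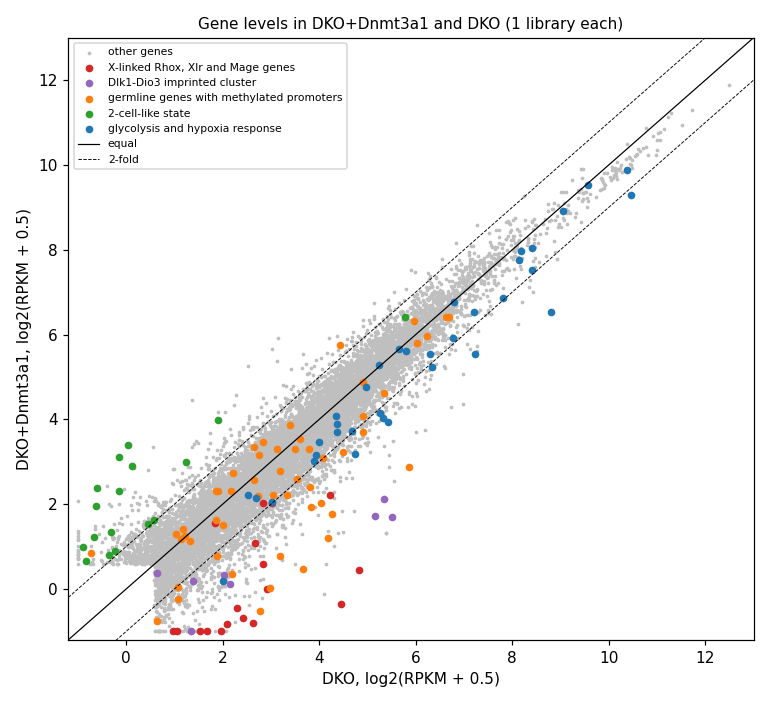
Level of each gene in DKO+Dnmt3a1 (y) and DKO (x), log2(RPKM + 0.5), 1 library each, with 5 gene lists coloured; the solid line is equality and the dashed lines are 2-fold. X-linked (red) and Dlk1-Dio3 (purple) members lie below the line, 2-cell-like genes (green) lie above it, and the germline genes (orange) spread to both sides. Genes under 1 RPKM in both libraries are left out. Of those shown, 13 of 18 X-linked and 5 of 8 Dlk1-Dio3 members reached 1 RPKM in DKO alone. Likewise, 14 of 17 2-cell-like genes reached it in DKO+Dnmt3a1 alone. Members that passed in 1 library only had to lie on that library's side of the line.

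Regulators of DNA methylation differed as well. Dppa3, which keeps Uhrf1 and Dnmt1 from methylating DNA in oocytes and ES cells, had 20.1 RPKM in DKO+Dnmt3a1, against 60.2 RPKM in DKO (2.99-fold lower, −1.56 ± 0.21, adjusted p = 0.20). Its levels were 27.4 RPKM in DKO+Dnmt3a2, 13.6 RPKM in DKO+Dnmt3b1 and 11.7 RPKM in WT. In the TKO family Dppa3 had 37.2 and 39.0 RPKM in TKO+Dnmt3a1, against 118 RPKM in TKO (−1.62), beside −1.56 here. Zfp57, the zinc finger protein that holds methylation at imprinted regions, had 128 RPKM in DKO+Dnmt3a1, against 46.5 RPKM in DKO (1.45 ± 0.26). DKO was the lowest of the 11 libraries for Zfp57, and the other 10 lay between 103 and 152 RPKM. Trim28, the corepressor that Zfp57 recruits, had 614 RPKM in DKO+Dnmt3a1, against 305 RPKM in DKO (1.01 ± 0.35). Dnmt1 had 59.8 RPKM in DKO+Dnmt3a1, against 74.5 RPKM in DKO, and its recruiter Uhrf1 had 94.4 RPKM in DKO+Dnmt3a1, against 111 RPKM in DKO. Dnmt3l, a partner of Dnmt3a without activity of its own, had 187 RPKM in DKO+Dnmt3a1, against 140 RPKM in DKO. Among 25 Tet oxidase, base excision and methyl-CpG reader genes, 0 were at least 2-fold higher and 1 lower (4%, beside 6.54%). That gene was the glycosylase Neil3, with 4.35 RPKM in DKO+Dnmt3a1 against 10.6 RPKM in DKO, and Tet2 had 16.7 RPKM in DKO+Dnmt3a1 against 9.32 RPKM in DKO.

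The list with the highest median was that of the 2-cell-like state, in which a minority of ES cells express genes of the 2-cell embryo. Of 30 members in the table, 17 were at least 2-fold higher in DKO+Dnmt3a1 (56.7%) and 0 lower, with a median of 1.10, or 1.66 with a pseudocount of 0.1 RPKM. Only 3 of them reached 1 RPKM in both libraries, 14 reached it in DKO+Dnmt3a1 alone, and 13 in neither. The window of Zscan4d (GRCm38.p6, chr7:11166099-11166398, − strand), the gene with the largest positive difference, is printed for comparison with the germline starts.
Zscan4d: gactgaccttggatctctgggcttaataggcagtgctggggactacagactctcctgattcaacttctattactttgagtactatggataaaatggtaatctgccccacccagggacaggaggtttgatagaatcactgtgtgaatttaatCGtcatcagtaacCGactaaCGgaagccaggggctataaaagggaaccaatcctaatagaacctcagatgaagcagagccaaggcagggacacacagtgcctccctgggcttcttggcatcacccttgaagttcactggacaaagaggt
It holds 3 CG sites, and 23.3% of all windows hold fewer.

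Zscan4d, of a family of zinc finger genes tied to telomere upkeep, had 9.97 RPKM in DKO+Dnmt3a1, against 0.523 RPKM in DKO (3.36 ± 0.83, adjusted p = 0.27). It stood at 8.48 RPKM in DKO+Dnmt3a2, 39.3 RPKM in DKO+Dnmt3b1, 5.94 RPKM in WT and 0.478 RPKM in TKO. The 2 parent lines were thus the lowest, but the TKO+Dnmt3a1 libraries differed from each other, at 0.799 and 3.86 RPKM, and that spread enters the standard error. Zscan4c had 4.68 RPKM in DKO+Dnmt3a1, against 0.162 RPKM in DKO, and 3.89 RPKM in WT. Tcstv3, another gene of this state, had 15.5 RPKM in DKO+Dnmt3a1, against 3.22 RPKM in DKO, and 13.6 RPKM in WT. Zscan4 and Usp17l genes are close copies and share reads. In bulk RNA, fewer cells in this state and less RNA per cell cannot be told apart.

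A few pluripotency genes differed by 2-fold or more, in both directions. Of 29 naive pluripotency genes, all at 1 RPKM or more, 2 were at least 2-fold higher and 2 lower (6.9% each, beside 2.94% and 6.54% of all genes at that level), with a median of 0.20. Gbx2, a homeobox target of LIF signalling, had 49.9 RPKM in DKO+Dnmt3a1, against 7.61 RPKM in DKO (6.56-fold, 2.64 ± 0.56). Gbx2 stood at 61.3 RPKM in DKO+Dnmt3a2 and 39.7 RPKM in DKO+Dnmt3b1, against 6.94 RPKM in WT and 5.93 to 22.3 RPKM in the TKO family. The 3 add-back lines of DKO were therefore above all other libraries, WT included. Prdm14, a repressor of Dnmt3 genes in ES cells, had 2.73 RPKM in DKO+Dnmt3a1, against 7.58 RPKM in DKO, and 7.66 RPKM in WT. Zfp42 had 335 RPKM in DKO+Dnmt3a1, against 182 RPKM in DKO. Of 27 formative and primed epiblast genes, 3 were at least 2-fold higher and 2 lower (11.1% and 7.41%, beside 2.94% and 6.54%). Otx2, a transcription factor of the epiblast, had 7.65 RPKM in DKO+Dnmt3a1, against 13 RPKM in DKO (−0.73 ± 0.27).

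Signalling genes differed in both directions. Among 23 FGF-ERK feedback and target genes, 6 were at least 2-fold higher and 3 lower (26.1% and 13%, beside 2.94% and 6.54%). Myc, a growth-promoting transcription factor, had 37.8 RPKM in DKO+Dnmt3a1, against 5.22 RPKM in DKO (2.74 ± 0.64). Spry2, a feedback inhibitor of FGF signalling, had 80.9 RPKM in DKO+Dnmt3a1, against 29.5 RPKM in DKO (1.44 ± 0.29). The immediate-early genes went the other way: Fos had 2.01 RPKM in DKO+Dnmt3a1, against 20.5 RPKM in DKO (−3.07 ± 0.32), and Egr1 had 19 RPKM in DKO+Dnmt3a1, against 106 RPKM in DKO (−2.44 ± 0.29). DKO stood alone for both, since Fos lay at 5.20 RPKM or less and Egr1 at 48.8 RPKM or less in all other libraries. Bmp4, a ligand that supports self-renewal with LIF, had 16.5 RPKM in DKO+Dnmt3a1, against 5.36 RPKM in DKO (1.54 ± 0.24), the lowest of the 11. Of 18 Nodal pathway genes, 0 were at least 2-fold higher and 2 lower (11.1%, beside 6.54%). Lefty2, a secreted Nodal inhibitor, had 53 RPKM in DKO+Dnmt3a1, against 154 RPKM in DKO.

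Metabolic genes were lower as groups. Of 36 glycolysis and hypoxia response genes, 34 lay below 0, 9 were at least 2-fold lower (25%, beside 6.54%) and 0 higher, with a median of −0.67. Ldhb, a lactate dehydrogenase subunit, had 91.5 RPKM in DKO+Dnmt3a1, against 447 RPKM in DKO (−2.28 ± 0.47). Its levels of 253 RPKM in WT and 159 RPKM in TKO lay between them. Car9, a carbonic anhydrase induced by hypoxia, had 0.631 RPKM in DKO+Dnmt3a1, against 3.49 RPKM in DKO. In TKO+Dnmt3a1 the list's median was 0.42 against TKO, the opposite sign. Against the same DKO library, the list's median was −0.85 in DKO+Dnmt3a2 and −0.89 in DKO+Dnmt3b1. Of 25 cholesterol synthesis genes, 6 were at least 2-fold lower (24%, beside 6.54%) and 0 higher (median −0.63). Among them was Insig1, a sterol sensor, with 18.8 RPKM in DKO+Dnmt3a1 against 50.2 RPKM in DKO. Of 33 glutathione transferase and peroxidase genes, 8 were at least 2-fold lower (24.2%, beside 6.54%) and 0 higher (median −0.43). In DKO+Dnmt3a2 and DKO+Dnmt3b1, against the same DKO, the cholesterol medians were −1.03 and −0.74 and the glutathione medians −0.58 and −0.52. Gstm3 had 1.53 RPKM in DKO+Dnmt3a1, against 19.3 RPKM in DKO (−3.29 ± 0.78), the highest of the 11. Of 25 p53 targets, which are not a metabolic group, 3 were at least 2-fold lower (12%, beside 6.54%) and 0 higher. They were led by Ddit4, a stress-induced inhibitor of mTOR, with 46.2 RPKM in DKO+Dnmt3a1 against 149 RPKM in DKO.

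Among the differentiation lists, most Hox genes (26 of 39) and most streak and mesoderm genes (19 of 25) were under 1 RPKM in both libraries. Of the endoderm list, 18 members reached 1 RPKM in both. Of 32 endoderm genes, 7 were at least 2-fold lower (21.9%, beside 3.89% of all genes in the table) and 0 higher (median −0.47). They were led by Srgn, a proteoglycan core protein, with 0.679 RPKM in DKO+Dnmt3a1 against 5.06 RPKM in DKO. Of the 23 at 1 RPKM or more in either library, 19 lay below 0 and 4 above. Among those above were Gata4, with 2.43 RPKM in DKO+Dnmt3a1 against 1.54 RPKM in DKO, and Gata6, with 1.84 against 1.43 RPKM. Srgn was at 21.5 RPKM in TKO+Dnmt3b1, the library with the highest sum of fibroblast markers, and the part of feeder cells in its level was not tested. Of 39 Hox genes, 9 were at least 2-fold higher (23.1%, beside 1.85%) and 0 lower, although only 4 reached 1 RPKM in both libraries. The highest difference was that of Hoxa5, with 1.33 RPKM in DKO+Dnmt3a1 against 0.197 RPKM in DKO. Of 35 Polycomb genes, 3 were at least 2-fold higher and 2 lower (8.57% and 5.71%, beside 2.94% and 6.54%). Jarid2 and Eed, of Polycomb repressive complex 2, had 135 and 96.7 RPKM in DKO+Dnmt3a1, against 55.2 and 46.7 RPKM in DKO, and Ezh1 had 11.6 RPKM in DKO+Dnmt3a1, against 24.4 RPKM in DKO. Among 22 neural genes 2 were at least 2-fold higher and 0 lower, among 28 trophoblast genes 2 and 1, and among 25 streak and mesoderm genes 1 and 1. These were 9.09% and 0%, 7.14% and 3.57%, and 4% each, beside 1.85% and 3.89% over all genes in the table. Of 18 LIF-STAT3 and BMP-Id targets, 2 were at least 2-fold higher (11.1%, beside 2.94%) and 0 lower.

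Interferon-stimulated genes were higher for some members. Of 46, 11 were at least 2-fold higher and 2 lower (23.9% and 4.35%, beside 1.85% and 3.89%), with a median of 0.13. Of these 46, 10 reached 1 RPKM in DKO+Dnmt3a1 alone. Isg15, a ubiquitin-like protein induced by interferon, had 21.3 RPKM in DKO+Dnmt3a1, against 2.09 RPKM in DKO (3.07 ± 0.86). It had 1.65 RPKM in DKO+Dnmt3a2, 29.9 RPKM in DKO+Dnmt3b1, 7.02 RPKM in WT and 9.60 to 52.9 RPKM in the TKO family. DKO and DKO+Dnmt3a2 were thus the lowest, and DKO+Dnmt3a1 lay inside the range of the TKO family. Usp18, the protease that removes ISG15, had 4.64 RPKM in DKO+Dnmt3a1, against 0.476 RPKM in DKO. Csf1, the macrophage growth factor, and Il1rl1, the interleukin-33 receptor, had 60.4 and 17.7 RPKM in DKO+Dnmt3a1, against 8.38 and 3.22 RPKM in DKO. Both were at their highest in the Dnmt3b1 libraries and TKO+Dnmt3a2 replicate 1, which also had the 3 highest fibroblast marker sums (1449.2 RPKM or more). Between DKO+Dnmt3a1 and DKO, however, that sum was lower in DKO+Dnmt3a1. Its part in these genes was not tested.

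The feeder markers themselves were mostly lower. Of 30 fibroblast markers, 8 were at least 2-fold lower (26.7%, beside 6.54%) and 0 higher (median −0.57). Of 22 macrophage markers, 8 were at least 2-fold lower (36.4%, beside 3.89%) and 0 higher (median −0.66). C1qa, a complement gene of macrophages, had 0.404 RPKM in DKO+Dnmt3a1, against 4.26 RPKM in DKO, and the collagen gene Col6a3 had 0.684 RPKM in DKO+Dnmt3a1, against 6.60 RPKM in DKO. Other markers went the other way, 7 of the 30 fibroblast markers among them. Tagln, an actin-binding protein of smooth muscle, had 54.4 RPKM in DKO+Dnmt3a1, against 28.9 RPKM in DKO (0.90 ± 0.33), and Spi1, a transcription factor of macrophages, had 1.37 RPKM in DKO+Dnmt3a1, against 0.707 RPKM in DKO (0.63 ± 0.32). Without both marker lists, 379 genes were at least 2-fold higher and 828 lower. This takes out only the markers themselves, so the part of feeder RNA in other genes was not tested. The 5 Y-linked genes at 1 RPKM or more in both libraries were all higher, 3 of them at least 2-fold, and 4 others were under 1 RPKM in both. Ddx3y had 19 RPKM in DKO+Dnmt3a1, against 6.46 RPKM in DKO, and stood at 21.1 RPKM in DKO+Dnmt3a2 and 16.8 RPKM in DKO+Dnmt3b1. The medians of the autosomes lay between −0.10 and 0.04.

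**Figure D2:**
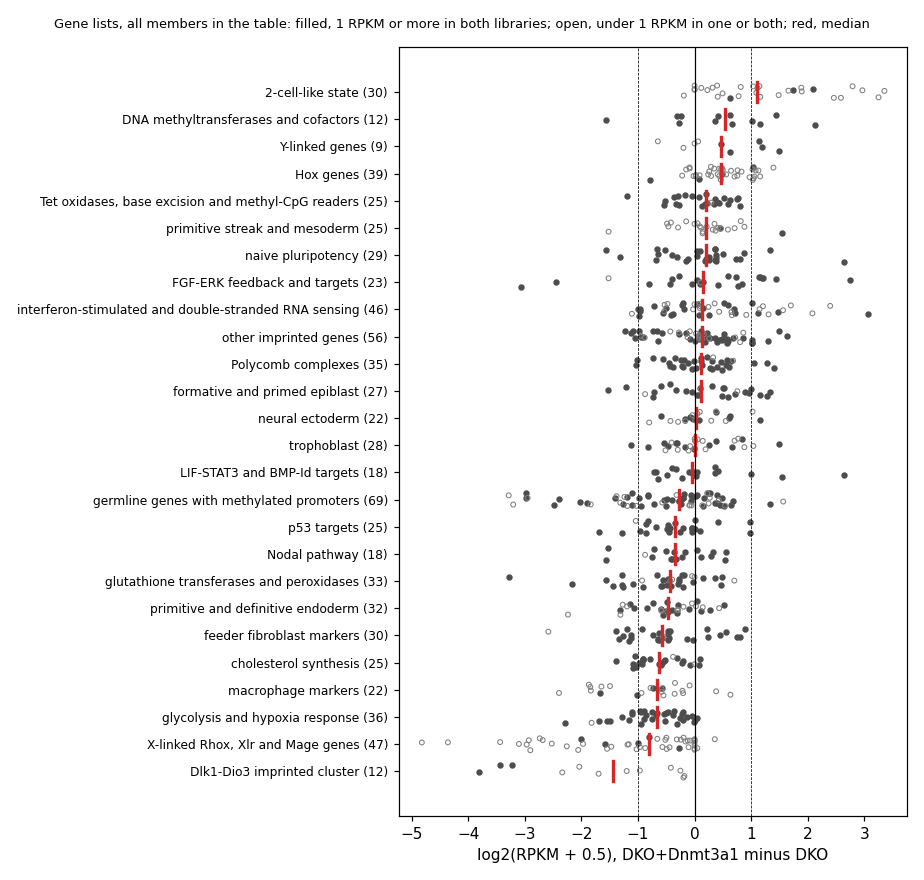
log2(RPKM + 0.5) of DKO+Dnmt3a1 minus DKO for all members of 26 gene lists in the table (number in brackets); filled points reached 1 RPKM in both libraries and open points did not, red bars are medians over all members and dashed lines mark 2-fold. The medians run from −1.45 for the Dlk1-Dio3 cluster to 1.10 for the 2-cell-like genes, whose points are mostly open, and all others lie within 2-fold of 0.

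Both libraries were often the extreme of the 11 for these genes. DKO was the highest of all 11 libraries for 378 of the 844 lower genes (44.8%) and the lowest of all for 178 of the 379 higher genes (47%), beside 11.7% and 11% over all 12896 members. DKO+Dnmt3a1 was the lowest of all for 104 of the lower genes (12.3%) and the highest of all for 43 of the higher genes (11.3%), beside 2.43% and 3.13% over all members. Choosing genes by the difference between the 2 libraries raises all 4 shares by itself. Igfbp4, an IGF-binding protein, is an example of a gene with DKO highest: it had 5.38 RPKM in DKO+Dnmt3a1, against 46.3 RPKM in DKO, while the other 9 libraries lay between 4.56 and 27.3 RPKM.

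**Figure D3:**
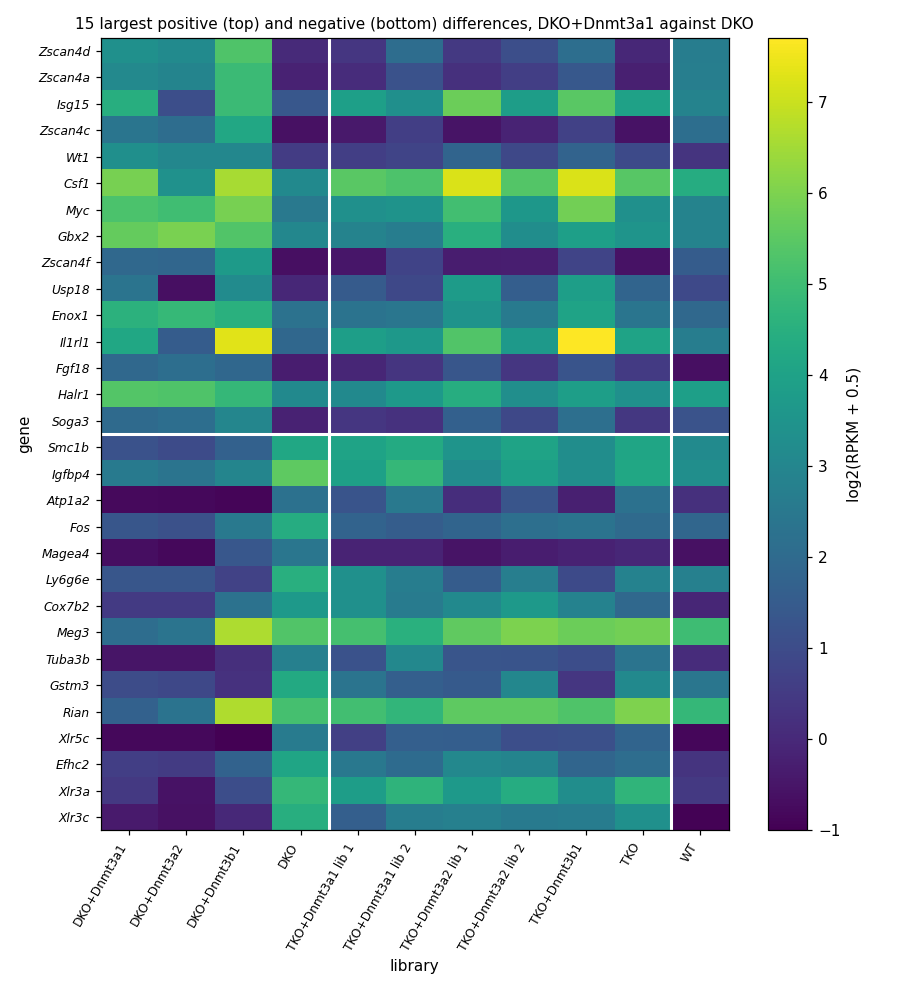
log2(RPKM + 0.5) of the genes with the 15 largest positive (top) and 15 largest negative (bottom) differences between DKO+Dnmt3a1 and DKO, in all 11 libraries (columns; vertical lines part the DKO family, the TKO family and WT). In the DKO column the upper genes are dark and the lower genes bright, and DKO+Dnmt3a2 is close to DKO+Dnmt3a1 (within 2-fold) except for Isg15, Csf1, Usp18, Il1rl1 and Xlr3a, which are lower there.

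The same isoform was put back into TKO, where Dnmt1 is missing, and that comparison shares no library with this one. TKO+Dnmt3a1 (mean of 2 libraries) against TKO had 189 of 13242 genes (1.43%) at least 2-fold higher and 271 (2.05%) lower. Of the lower genes 62 were lower in both families, 7.35% of the 844 in DKO and 22.9% of the 271 in TKO. Of the higher genes 11 were shared, 2.9% of the 379 and 5.82% of the 189. Of the 775 lower genes that were also measured in the TKO family, 59.7% were below 0 there, beside 55.4% of all 12558 genes measured in both families. Of 323 higher genes 53.6% were above 0 there, beside 44.6% of all. Across those 12558 genes the differences in the 2 families correlated at r = 0.11, as a description in which genes are not independent.

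The difference between the 2 responses was tested in the same limma fit. It called 0 of 14229 genes (0%), with 1337 at an unadjusted p under 0.05 and a smallest adjusted p of 0.262. Otx2 was among the genes with that smallest adjusted p: it was lower by value in DKO+Dnmt3a1, as above, and had 7.06 and 7.14 RPKM in TKO+Dnmt3a1, against 0.585 RPKM in TKO. Its 2 responses differed by −3.54 (unadjusted p = 9.02e-05, limma). For Rian the responses differed by −2.31 and for Dppa3 by 0.06. A difference that did not pass does not show that the families respond alike.

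**Figure D4:**
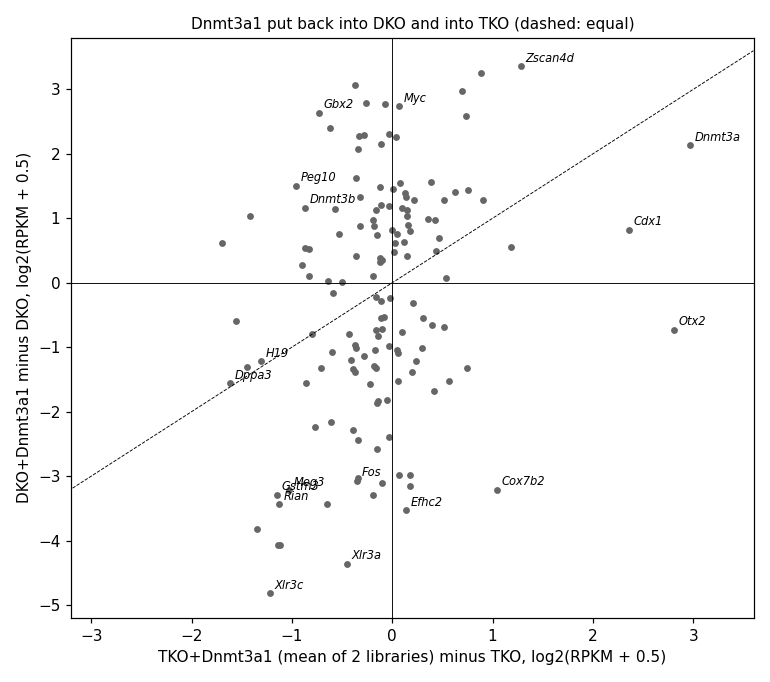
log2(RPKM + 0.5) of DKO+Dnmt3a1 minus DKO (y) against TKO+Dnmt3a1 minus TKO (x) for the named genes; the dashed line marks equal differences. Dppa3 and H19 lie on it, Rian and Meg3 lie below it with both values negative, and Otx2 and Cox7b2 are positive in the TKO family and negative in the DKO family.

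The line with the short isoform, DKO+Dnmt3a2, had more genes at least 2-fold lower against DKO than DKO+Dnmt3a1 had. DKO+Dnmt3a2 against DKO had 324 of 12760 genes (2.54%) at least 2-fold higher and 1315 (10.3%) lower, and DKO+Dnmt3b1 against DKO had 1363 of 13345 (10.2%) higher and 1270 (9.52%) lower. These comparisons share the DKO library with that of DKO+Dnmt3a1. The fibroblast marker sum was 341.8 RPKM in DKO+Dnmt3a2, against 891.5 RPKM in DKO+Dnmt3a1, and its part in these counts was not tested. Set against each other without DKO, DKO+Dnmt3a1 and DKO+Dnmt3a2 differed by limma in 1 of 14229 genes (0.00703%), with 387 at an unadjusted p under 0.05. That gene was Lyz2, the lysozyme of macrophages, at 19.5 RPKM in DKO+Dnmt3a1 and 0.066 RPKM in DKO+Dnmt3a2 (5.14, adjusted p = 0.0288). The macrophage marker sums of 44.7 and 14.1 RPKM in these libraries move with it, and their part in it was not tested. Leaving out any 1 of the 4 replicate libraries ended this call. With 1 library per arm, few calls do not show that the isoforms act alike, and lists parted by value. Fibroblast markers had a median of −0.57 in DKO+Dnmt3a1 and −2.11 in DKO+Dnmt3a2, each against DKO, and interferon-stimulated genes had 0.13 in DKO+Dnmt3a1 and −0.56 in DKO+Dnmt3a2.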

How the data were processed

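RPKM values for 24016 genes were deposited by the authors in 1 table with 0 columns of other samples; the submitters' processing notes name the tools bcl2fastq 1.8.4 and STAR 2.4.0 and the build mm9. The counting tool, gene lengths and strand setting are not given in the sources used here. The TruSeq v2 kit keeps no strand, so overlapping and antisense genes share reads. Depth was estimated from the RPKM steps of 1244 short transcripts, and read numbers derived from it are approximate.

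Values were taken as log2(RPKM + 0.5), which understates changes of low genes. limma 3.58.1 in R 4.3.3 was fitted to 9 group means over 11 libraries (residual df 2, prior df 3.7), tested on simulated data, with Benjamini-Hochberg adjustment over 14229 genes that reached 1 RPKM in any library. P-values are two-sided and measure only the spread between libraries of the replicated lines. Chromosomes came from RefSeq GRCm38.p6 for 23961 genes, and sequences from RefSeq tables of that build, not the files' mm9. Windows matched 71.1% of the lower and 66% of the higher genes, under the 80% needed, so promoters were not compared by direction.

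Genes named were all calls, those with the 15 largest differences in each direction without predicted, clone or small RNA names, 5 methyltransferase genes, and up to 3 in each direction per list; further list members are given as examples. The members and 26 lists were chosen with earlier results of these data known.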

Additional observations from a re-analysis of the deposited data

How the results depend on the processing

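The 2-fold counts (379 higher, 844 lower) became 210 and 478 among genes at 5 RPKM or more. They ranged from 271 to 518 higher and from 599 to 1108 lower over the other pseudocounts, scalings and filters. Quantile normalization raised the higher share of these genes to 40.8%, from 31%. The 4 genes called lower became 223, and the 0 called higher 210, without a filter on low values, where 405 of 433 calls were under 1 RPKM in every library. An additive model of family and enzyme called 2 lower and 1 higher (1700080O16Rik, Dppa3 and Dnmt3a), and 0 of the 4. Leaving out 1 replicate library gave 0 to 0 lower. With the replicate block, 62 were lower and 17 higher, the 4 calls among them; the numbers mark no shared batch, and the differences between libraries 2 and 1 of the 2 replicated lines correlated at 0.09. The test of DKO against TKO responses (0) called 533 without the filter. The test of DKO+Dnmt3a1 against DKO+Dnmt3a2 (1) called 0 with a pseudocount of 1, 332 without the filter, 13 with the replicate block, and 0 to 0 with 1 replicate library left out. List medians over members at 1 RPKM or more in either library ran from −2.60 (X-linked genes) to 1.89 (2-cell-like genes), wider than the medians over all members, a choice made after the data were seen; of them, those of neural and trophoblast genes (−0.03 and −0.01) changed sign under quantile normalization, to 0.07 and 0.13. No named gene with a difference of 2-fold or more changed sign under the alternatives run other than the additive model, where 1 (Gata3) did. Without transcripts under 200 nt or of unknown length, an alternative added after the data were seen, 326 genes were higher and 737 lower. Precision is limited by 1 library per arm.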
